A study of Mus musculus with 7 samples.

Results

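Extracellular ATP and adenosine genes are followed here as 10 genes of the count table: the ectonucleotidases Entpd1, Entpd2, Entpd3, Enpp1, Enpp3 and Nt5e, the deaminase Ada, the adenosine receptor gene Adora2b, and the ATP receptor genes P2ry2 and P2rx4. They were matched by symbol to the Ensembl identifiers of the table, and all 10 of the 10 were found among 54446 genes. RNA was sequenced from pancreatic spheroids, small epithelial cultures, of wild-type C57BL/6J mice. There were 3 libraries from untreated mice (U01 to U03) and 4 from mice previously treated with caerulein (P01 to P04), a cholecystokinin analogue that provokes acute pancreatitis. Cultures of both groups grew in the same medium, which held cholera toxin, EGF, hydrocortisone, insulin, tri-iodothyronine and bovine pituitary extract. The labels give neither the age and sex of the mice nor the interval after caerulein, and do not say whether libraries came from separate animals or cultures. The spread between libraries, which is what the p-values measure, may then be technical.

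ATP that leaves a cell acts on P2 receptors until it is degraded at the cell surface. The Entpd enzymes remove phosphates from ATP and ADP to leave AMP, Enpp1 and Enpp3 split ATP directly to AMP and pyrophosphate, and Nt5e, also known as CD73, turns AMP into adenosine. Adenosine acts on its own receptors, among them the product of Adora2b, which raises cAMP through the stimulatory G protein that cholera toxin also activates, and it is removed by uptake or by deamination through Ada. In the pancreatic duct, luminal ATP and adenosine are known to drive ion and fluid secretion.

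The genes were chosen by their pathway and selected on their read counts scaled to library size (CPM) in these same 7 libraries, with earlier comparisons of the 2 groups in view. Their group differences are therefore given as a description, with standard errors (SE) of the fit and no p-value of a member's own beyond the authors' deposited rates. Counts of members past a threshold, some with the members named, are printed beside the share or number of all genes past it. They are not read as support.

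Promoter sequence is shown for 3 of the 4 genes on which the account of differing libraries and levels turns (Entpd2, Entpd3 and Adora2b). The window of Nt5e is left out because it overlaps an annotated exon. Each run is the 250 bases before the RefSeq start site in GRCm38.p6, 5′ to 3′ on the gene's own strand, and capitals mark matches to TGACGTCA, the cAMP response element, TGANTCA, the AP-1 element, or ACGTG, the core of the hypoxia response element, on either strand. The 3 windows lie on the plus strand at chr2:25395624-25395873 (Entpd2), chr9:120539568-120539817 (Entpd3) and chr11:62248734-62248983 (Adora2b).
Entpd2: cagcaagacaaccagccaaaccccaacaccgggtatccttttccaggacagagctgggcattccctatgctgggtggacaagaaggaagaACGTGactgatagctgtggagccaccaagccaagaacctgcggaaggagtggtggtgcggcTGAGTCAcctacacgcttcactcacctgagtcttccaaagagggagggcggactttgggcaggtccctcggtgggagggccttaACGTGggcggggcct
Entpd3: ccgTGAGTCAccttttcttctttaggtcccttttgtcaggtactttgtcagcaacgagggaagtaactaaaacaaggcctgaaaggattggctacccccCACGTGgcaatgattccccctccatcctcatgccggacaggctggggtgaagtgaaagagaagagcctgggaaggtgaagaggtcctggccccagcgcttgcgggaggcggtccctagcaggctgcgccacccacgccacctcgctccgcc
Adora2b: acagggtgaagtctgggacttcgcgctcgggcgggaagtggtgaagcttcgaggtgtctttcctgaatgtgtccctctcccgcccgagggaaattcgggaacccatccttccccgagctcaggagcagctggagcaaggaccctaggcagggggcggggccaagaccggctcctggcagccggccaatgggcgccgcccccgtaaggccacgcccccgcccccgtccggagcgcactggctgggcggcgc

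Over windows of 300 bases that also take in 50 bases after the start, TGANTCA occurred in 2 of the 10 genes, Entpd2 and Entpd3, and in 7.81% of all 32851 RefSeq promoter windows. ACGTG occurred in 4 of the 10, Entpd2, Entpd3, Enpp1 and P2ry2, and in 19.6% of all windows. The ACGTG match of Entpd3 lies in CACGTG, so it counts on both strands. TGACGTCA occurred in none of the 10 and in 1.79% of all windows. A match describes these letters in these windows and shows no binding.

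The libraries themselves fell into an order that crossed the groups. Total counts lay between 34783738 and 46744497. On the leading principal component, with 51.7% of the variance, the extremes were U03 (70.4) and P04 (58.4) on one side and U01 (-67.7) and U02 (-63.4) on the other. P02 and P03 were the closest pair of libraries (median absolute log2 difference of 0.104 per gene), followed by U01 and U02 (0.144), while all remaining pairs differed by at least 0.256. Chi-square per gene was 10.5 and 15.2 within these close pairs, above the value near 1 of counting noise, so they were kept as separate libraries. This value cannot tell separate animals or cultures from separate preparations of the same culture. U03 and P04 form the smaller block, and the other 5 libraries the larger block, of a fit that gives back the log2 fold changes of the authors' deposited table to within 3.2e-08. No label states what that block stands for. All 10 ductal epithelial markers were present, with a summed level of 13614 to 15482 CPM in U01 to U03 and 14322 to 21395 CPM in post-caerulein libraries. Ptprc, the pan-leukocyte gene, was at 0.105 CPM or less, and 8 of 10 leukocyte, 5 of 8 endothelial, 4 of 8 acinar and 6 of 8 islet markers stayed under 1 CPM in every library. Single markers differed between libraries. Cftr, the ductal chloride channel gene, was at 39.1, 38.5 and 1.02 CPM in U01 to U03 and at 4.66 to 4.76 CPM in P01 to P04. For Sox9, a transcription factor of duct cells, U01 to U03 had 10.9, 12.9 and 61.6 CPM, and P01 to P04 had 37.1 to 51.7 CPM. Cd68, a macrophage marker, was at 97.9 CPM in U03 against 24.7 and 20.5 CPM in U01 and U02 and 11.7 to 35.0 CPM in P01 to P04.

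Per length of transcript, Entpd2, P2ry2 and P2rx4 were the leading members by their mean over the 7 libraries. Levels were compared between genes as reads scaled to exon length and library size (RPKM). Entpd2 ranged from 24.2 to 65.5 RPKM over the 7 libraries and was the highest of the 10 genes in 6 of them, the exception being U01, where Nt5e led. P2ry2 ranged from 15.7 to 30.2 RPKM and P2rx4 from 15.7 to 22.5 RPKM, so their ranges overlapped and their order changed between libraries. Nt5e ranged from 1.17 to 27.4 RPKM and lay above P2ry2 and P2rx4 in U01 and U02. Enpp1 (2.91 to 12.2 RPKM), Ada (1.42 to 5.70 RPKM) and Entpd3 (0.450 to 4.03 RPKM) followed, also with overlapping ranges. Adora2b stayed at 0.797 RPKM or less, Enpp3 at 0.110 RPKM or less and Entpd1 at 0.0531 RPKM or less.

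**Figure D1:**
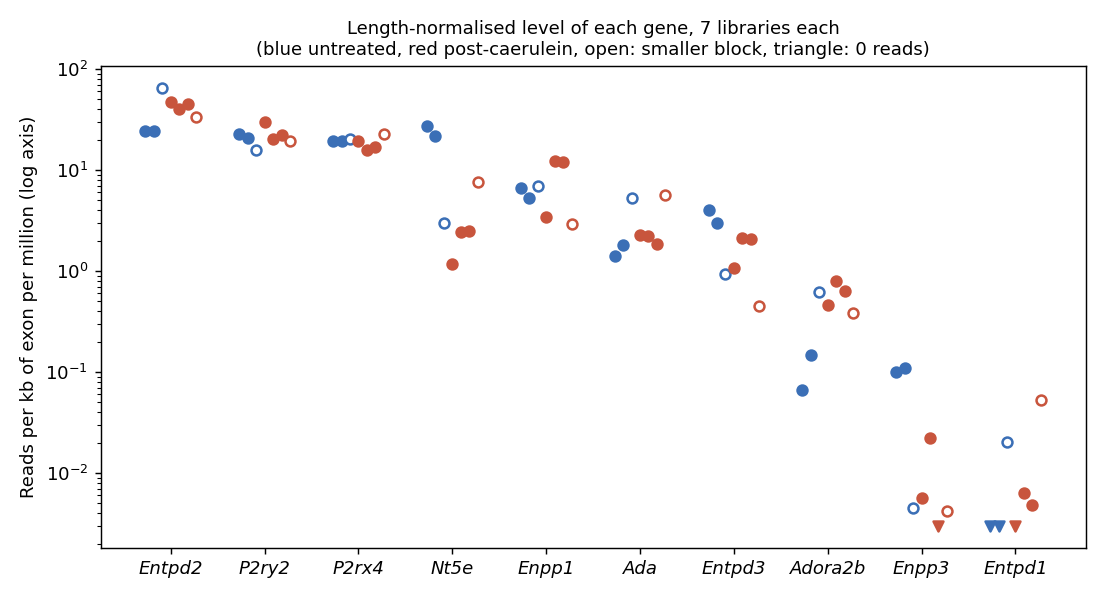
Length-normalised level (RPKM, log axis) of the 10 genes, 1 point per library; blue is untreated, red is post-caerulein, open points are U03 and P04, and triangles at the lower edge stand for 0 reads. Entpd2, P2ry2 and P2rx4 hold the upper places except in U01 and U02, where Nt5e lies above P2ry2 and P2rx4. Nt5e spans 1.17 to 27.4.

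No member separated the groups across all 7 libraries. The groups overlapped for each of the 8 members abundant enough to test, against 9.31% of all 16438 tested genes whose groups did not overlap. With the group as the only term, edgeR's quasi-likelihood test called 0 of the 8 members and 0% of all genes at an adjusted p under 0.05. At an unadjusted p under 0.05 there was 1 member, Nt5e, and 9.5% of all genes, and DESeq2, limma-voom and the likelihood ratio test each called 0 members, where they called 3.12%, 0% and 2.09% of all genes. With the block as a term the quasi-likelihood test called 0 of the 8 members and 1.53% of all genes, 0.651% higher and 0.876% lower in post-caerulein libraries. There 2 members and 17.5% of all genes had an unadjusted p under 0.05, and limma-voom called 0 members and 2.18% of all genes. DESeq2 and the likelihood ratio test each called 1 member, Entpd3, and 9.16% and 7.46% of all genes. Median log2 differences were 0.11 without and 0.14 with the block over the 8 members, and -0.02 and -0.00 over all genes tested.

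**Figure D2:**
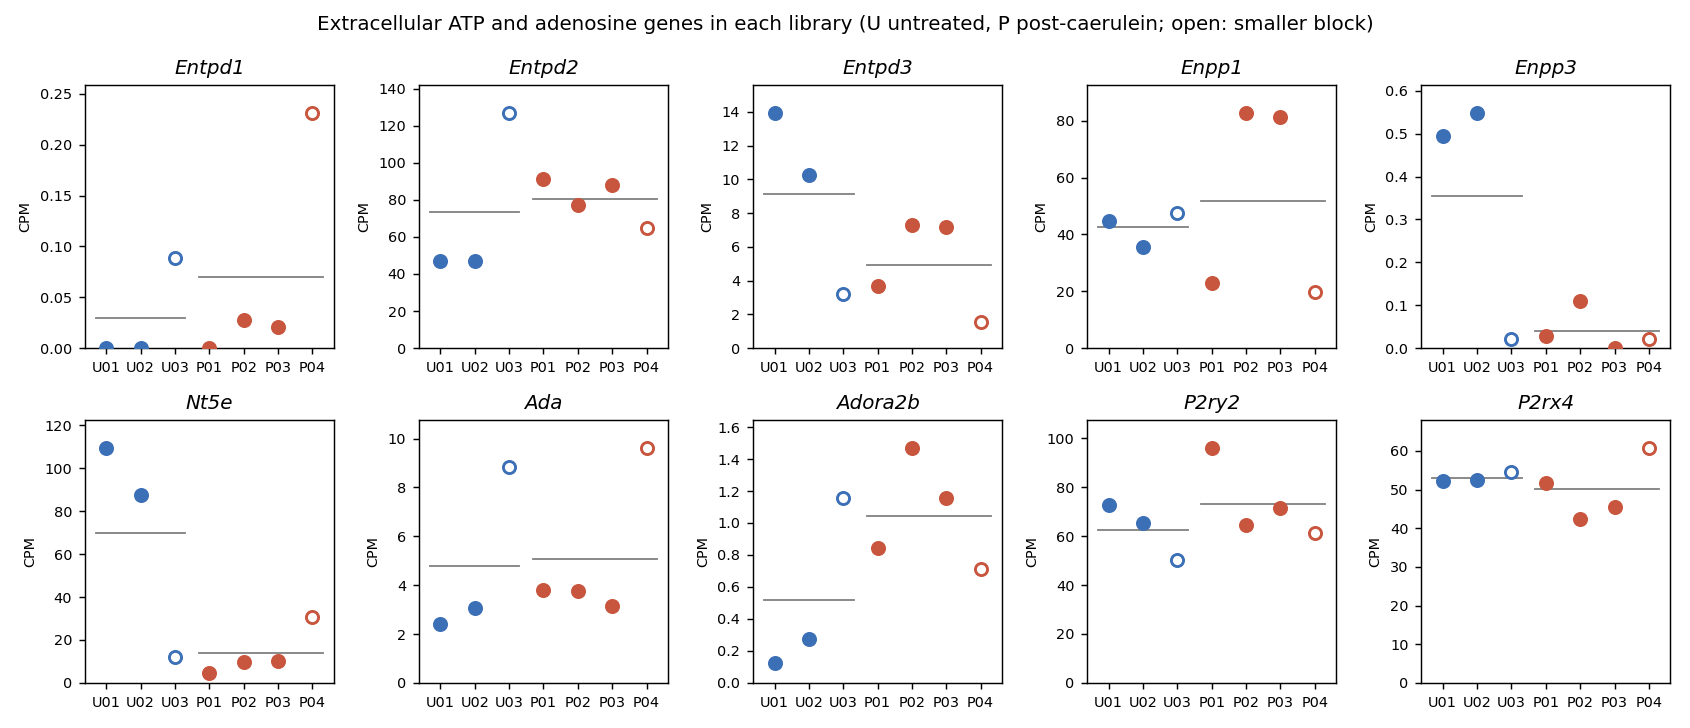
CPM of each of the 10 genes (linear axes from 0) in the 3 untreated (blue) and 4 post-caerulein (red) libraries, with U03 and P04 as open points and grey lines at the group means. Nt5e is high in U01 and U02 only, Entpd2 is highest in U03, and Ada is high in both open points.

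Among the 4 Entpd genes of the cell surface, Entpd1, Entpd2, Entpd3 and Entpd8, most of the transcript was that of Entpd2. Entpd2, an ATPase of the cell surface that prefers ATP to ADP (ENSMUSG00000015085.8, chromosome 2, 25395874 to 25401321, GRCm38), was at 47.1, 46.9 and 127 CPM in U01, U02 and U03 and at 91.5, 76.9, 88.2 and 64.9 CPM in P01 to P04. The post-caerulein values lay between the 2 low untreated libraries and the high one, so the groups overlapped. It made up 85.3% of the RPKM summed over those 4 genes in U01, 88.7% in U02 and between 94.3% and 98.1% in the other 5 libraries. Its log2 difference between the groups was 0.33 ± 0.34 (SE) with the block. Within the larger block it was 0.89 ± 0.10, and between P04 and U03 it was -0.97. Without U01, without U02 or with the close pairs summed, the difference without the block turned negative, so no direction holds for all 7 libraries. In GENCODE M21, 612 exon bases of Entpd2 are shared with the adjoining gene Npdc1 on the same strand, where reads may be split or lost. Npdc1 lay between 99.7 and 131 CPM in all libraries (122 CPM in U03). The part of shared reads in the Entpd2 values was not tested.

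As a sum, stromal markers moved with Entpd2 in the untreated libraries. The 10 markers of fibroblasts, stellate cells and pericytes summed to 21.5 CPM in U03 against 0.643 and 0.337 CPM in U01 and U02, and to between 3.34 and 7.68 CPM in the post-caerulein libraries. For Col1a1, which encodes a chain of fibrillar collagen, U03 had 8.69 CPM, U01 0.0990 CPM and U02 0.0421 CPM. Col1a2 and Col3a1, collagen genes as well, held much of the rest of the U03 sum, at 6.07 and 3.91 CPM. Of the 10 markers 6 stayed under 1 CPM in every library. Among these 6, Rgs5 and Des were highest of the untreated in U01, at 0.198 and 0.124 CPM. Sox9, a gene of duct cells, and Cd68, with the values above, were likewise highest in U03. Ptprc was at 0.0222 CPM there, and 8 of the 10 leukocyte markers stayed under 1 CPM in every library. Cd68 thus did not move with the rest of its list. The part of stromal cells in the Entpd2 values was not tested. In bulk RNA more cells of a type cannot be told apart from more RNA per cell.

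Entpd3, which hydrolyses ATP and ADP, is a known islet gene as well. It (ENSMUSG00000041608.8, chromosome 9, 120539818 to 120568327) was at 13.9, 10.3 and 3.2 CPM in the untreated and at 3.70, 7.32, 7.18 and 1.55 CPM in the post-caerulein libraries. U01 and U02 stood above all others, and U03 lay inside the post-caerulein range. The log2 difference was -1.01 ± 0.27 with the block, -0.97 ± 0.31 in the larger block and -1.04 between P04 and U03. It was the one member whose lower level in post-caerulein libraries had nearly the same size in both blocks, and its sign held in all 15 alternatives with the block and in all 15 without. The authors' deposited table gives Entpd3 a log2 fold change of -0.99 and a false discovery rate of 0.0194. The 8 islet markers summed to 0.0990, 0.105 and 0.6003 CPM in U01 to U03 and to 3.95, 4.96, 5.94 and 0.588 CPM in P01 to P04, and their part in the Entpd3 values was not tested.

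Entpd1, the CD39 gene of leukocytes and endothelium (ENSMUSG00000048120.16, chromosome 19, 40612397 to 40741602), was all but undetected. It had 0, 0 and 4 reads in U01 to U03 and 0, 1, 1 and 11 reads in P01 to P04, and was too low to test. A count of 0 allows up to 0.0630 to 0.0841 CPM at these depths, for counting error only. The 11 reads of P04 correspond to 0.231 CPM.

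The pyrophosphatase genes Enpp1 and Enpp3 are neighbours on the minus strand of chromosome 10, 60.2 kb apart, and their levels did not overlap in any library. Enpp1 (ENSMUSG00000037370.13, 24637914 to 24712158) was at 44.7, 35.6 and 47.4 CPM in U01 to U03 and at 23.1, 82.6, 81.3 and 19.7 CPM in P01 to P04. The close pair P02 and P03 lay above every untreated library and P01 and P04 below every one, so the post-caerulein group enclosed the untreated one. The log2 difference was 0.09 ± 0.54 with the block, 0.66 ± 0.51 in the larger block and -1.27 between P04 and U03, and its sign flipped under 6 of 15 alternatives with the block. Enpp3 (ENSMUSG00000019989.8, 24772406 to 24836225) had 20, 26 and 1 reads in U01 to U03 and 1, 4, 0 and 1 reads in P01 to P04. Its reads were thus held by U01 and U02, as for Nt5e.

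Nt5e, the enzyme that forms adenosine from AMP, showed the largest fitted difference of the 8 tested genes. Nt5e (ENSMUSG00000032420.8, chromosome 9, 88327197 to 88372092) was at 109, 87.6 and 11.98 CPM in U01, U02 and U03 and at 4.68, 9.82, 10.02 and 30.6 CPM in P01 to P04. U01 and U02 lay far above the rest, and U03 lay below P04. Cftr, as given above, was also highest in U01 and U02, and a shift among ductal cells was not tested. Group means were 69.7 ± 51.2 CPM (SD, n = 3) and 13.8 ± 11.5 CPM (SD, n = 4). The log2 difference was -2.34 ± 0.81 without and -2.53 ± 0.95 with the block. In the larger block alone it was -3.56 ± 0.31, while P04 exceeded U03 by 1.35. The authors' deposited table lists Nt5e with a log2 fold change of -2.54 and a false discovery rate of 0.00485. Nt5e and Entpd3 were the 2 of 8 listed members under 0.05 in the authors' deposited table, where 7.88% of genes are.

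The balance between the 2 steps of ATP breakdown shifted with Nt5e. The ratio of Nt5e to Entpd2 RPKM was 1.13 in U01 and 0.905 in U02, but 0.0458 in U03. In P01 to P04 it was 0.0248, 0.0618, 0.0550 and 0.228. U03 thus fell among the post-caerulein libraries in this ratio, which compares transcript levels and not enzyme activity.

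**Figure D3:**
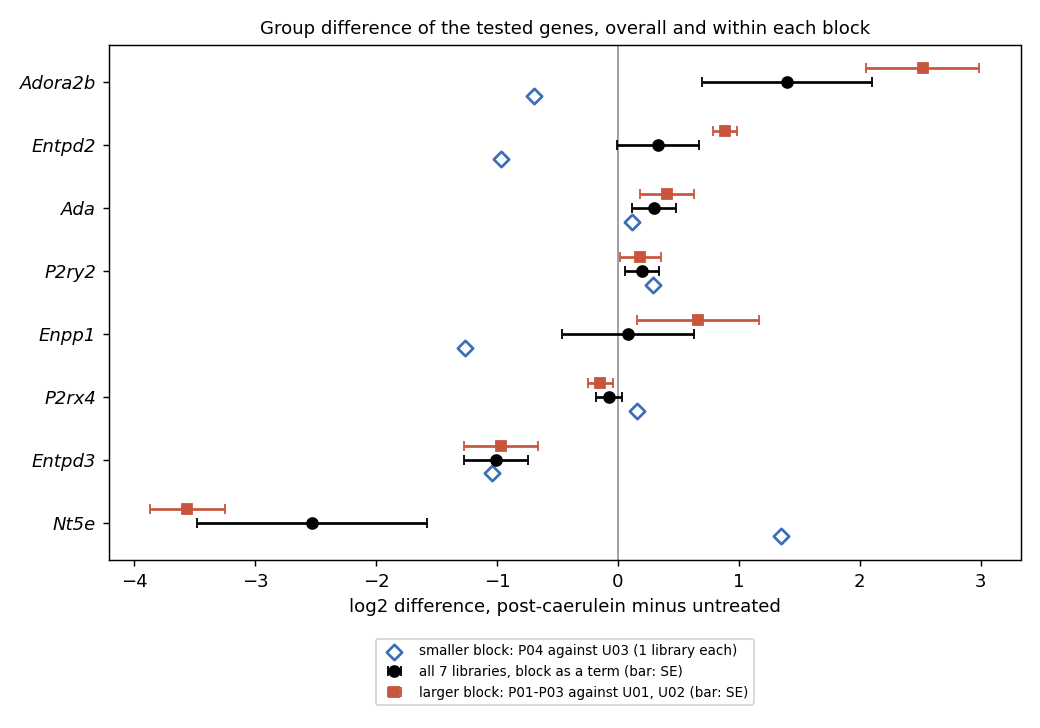
Log2 difference, post-caerulein minus untreated, of the 8 tested genes: black circles are the fit over 7 libraries with the block as a term, red squares the larger block alone (bars are SE), and open diamonds P04 against U03, 1 library each with no error. The diamonds lie across 0 from the squares for Nt5e, Entpd2, Enpp1, Adora2b and P2rx4, and beside them for Entpd3, Ada and P2ry2.

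Ada, the deaminase that turns adenosine into inosine (ENSMUSG00000017697.3, chromosome 2, 163726584 to 163750239), followed the block and not the group. It was at 2.40, 3.08 and 8.85 CPM in U01 to U03 and at 3.81, 3.77, 3.16 and 9.62 CPM in P01 to P04. U03 and P04 were the 2 high libraries, and the other 5 lay between 2.40 and 3.81 CPM. The log2 difference was 0.30 ± 0.18 with the block, 0.41 ± 0.22 in the larger block and 0.12 between P04 and U03.

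Of the receptor genes, P2ry2 and P2rx4 varied least between libraries and Adora2b was low. P2ry2, a Gq-coupled receptor for ATP and UTP (ENSMUSG00000032860.5, chromosome 7, 100996568 to 101012037), was at 72.7, 65.5 and 50.1 CPM in U01 to U03 and at 96.1, 64.7, 71.4 and 61.2 CPM in post-caerulein libraries. The groups overlapped, with P01 the highest and U03 the lowest library. The log2 difference was 0.20 ± 0.14 with the block. P2ry2 made up 85.5% to 95.9% of the RPKM summed over 8 P2Y receptor genes. P2rx4, an ATP-gated cation channel subunit (ENSMUSG00000029470.15, chromosome 5, 122707544 to 122729738), was at 52.3, 52.4 and 54.5 CPM in U01 to U03 and at 51.8, 42.4, 45.6 and 60.8 CPM in post-caerulein libraries. It had the smallest log2 difference of the 8 tested members, -0.07 ± 0.11 with the block, and made up 70.9% to 83.6% of the RPKM summed over 7 P2X subunit genes.

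Adora2b, the low-affinity adenosine receptor gene (ENSMUSG00000018500.2, chromosome 11, 62248984 to 62266453), rested on few reads. It had 5, 13 and 52 reads in U01 to U03 and 30, 53, 55 and 34 reads in P01 to P04. In CPM this was 0.124, 0.274 and 1.16 in untreated and 0.841, 1.47, 1.16 and 0.714 in post-caerulein libraries. U01 and U02 were the lowest of the 7, and U03 lay within the post-caerulein range. The log2 difference was 1.4 ± 0.70 with the block, 2.52 ± 0.47 in the larger block and -0.69 between P04 and U03. The stromal marker sums given beside Entpd2 were likewise lowest in U01 and U02, and their part in the Adora2b reads was not tested.

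Within the larger block alone (U01 and U02 against P01 to P03), the quasi-likelihood test called 3 of the 8 members, Nt5e lower and Entpd2 and Adora2b higher in post-caerulein libraries, where 13.8% of 16276 genes were called. Enpp3 also had an adjusted p under 0.05 there, but it passed the filter on low counts only through U01 and U02, where it is high, and is not counted. Its untreated side is a single close pair, U01 and U02. A test of whether the group difference itself differed between the blocks, chosen after these values were seen, called Nt5e and Entpd2, 2 of 8 members, and 3.64% of all genes. The smaller block has 1 library per group and the members were selected on these values, so the count is a description. Both calls were lost without U01, without U02 and with the close pairs summed, and that of Nt5e also without the filter on low counts. The estimates lay between 4.64 and 5.11 (log2) for Nt5e and between -1.90 and -1.81 for Entpd2 under these and the other alternatives.

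The rest of the pathway was covered by 92 further genes in 9 lists, of which 65 were abundant enough to test. With the block, 3 rose and 1 fell (edgeR quasi-likelihood, adjusted over all genes), and 14 of the 65 had groups that did not overlap. Over all genes 1.53% were called, 0.651% higher and 0.876% lower, and 9.31% did not overlap. The median log2 difference was 0.12, against -0.00 over all genes tested. Without the block none was called. Slc29a1, the equilibrative transporter that carries adenosine across the membrane, had 10.6, 10.8 and 18.7 CPM in U01 to U03 and 25.1, 21.9, 20.3 and 29.5 CPM in P01 to P04. The groups did not overlap, and the gene rose by 0.94 ± 0.13 (log2, SE; edgeR quasi-likelihood, block included, adjusted p = 0.0292). It had the same sign in both blocks, 1.09 in the larger one and 0.65 between P04 and U03.

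Slco2a1, a prostaglandin carrier also described as part of an ATP-permeable anion channel, rose by 2.27 ± 0.26 (edgeR quasi-likelihood, adjusted p = 0.0226). It was at 16.0, 21.1 and 41.6 CPM in untreated against 132, 74.3, 107 and 139 CPM in post-caerulein libraries, without overlap. The summed level of the 8 acinar markers also separated the groups. It was 0.619, 0.695 and 0.689 CPM in U01 to U03 and 9.36, 1.75, 3.35 and 11.8 CPM in P01 to P04. Of the 8 markers only 2 were abundant enough to test, and the groups did not overlap for 1 of these. That marker, the chymotrypsinogen gene Ctrb1, passed with the block (edgeR quasi-likelihood, adjusted p = 0.0378). The part of acinar cells in the pathway values was not tested. Adcy1, a calcium-stimulated adenylyl cyclase, rose by 1.69 ± 0.29 (edgeR quasi-likelihood, adjusted p = 0.0442) from a low level. Untreated libraries had 0.445, 0.316 and 1.09 CPM, and post-caerulein libraries 1.74, 1.36, 1.20 and 2.65 CPM. Pde4d, a phosphodiesterase that degrades cAMP, fell by 0.87 (SE 0.11; edgeR quasi-likelihood, block included, adjusted p = 0.0231). It was at 94.0, 94.6 and 51.4 CPM in U01 to U03 and at 48.3, 48.2, 44.6 and 35.4 CPM in post-caerulein libraries. U03 stood nearer to the post-caerulein values than to the other untreated ones, yet above each of them. All 4 calls were lost without U01, without U02, without P03 or with the close pairs summed. Without P02 Slco2a1 alone of the 4 was still called, and Adcy1 was also lost without P01 and with at least 50 counts required in 3 libraries.

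**Figure D4:**
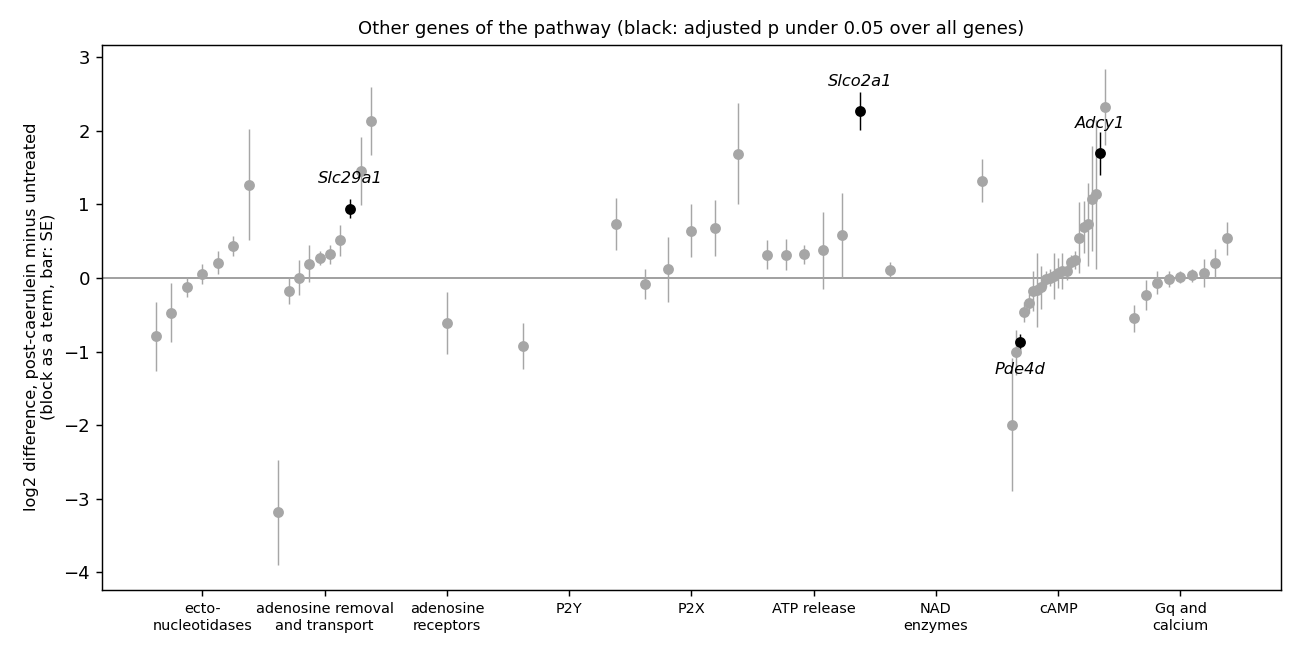
Log2 difference, post-caerulein minus untreated, with the block as a term (bars are SE), for the 65 tested genes outside the 10, by list; black points passed an adjusted p under 0.05 over all genes. The black points are Slc29a1, Slco2a1 and Adcy1 above 0 and Pde4d below it.

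By list, 0 of 7 further genes listed with the ectonucleotidases, not all of which act at the cell surface, passed with the block. Enpp5, the one with the highest mean over the 7 libraries per length, was at 29.8 ± 13.9 RPKM (SD, n = 3) in untreated and 24.9 ± 4.72 RPKM (SD, n = 4) in post-caerulein libraries. Entpd5, an enzyme of the secretory pathway, was at 23.0 ± 8.10 and 28.2 ± 11.1 RPKM. Of 10 genes for adenosine removal and nucleoside transport Slc29a1 alone passed, and the adenosine kinase gene Adk had the highest level, at 47.7 ± 9.60 and 58.5 ± 3.27 RPKM. Of the other adenosine receptors only Adora1 could be tested, at 1.59 ± 0.781 and 1.07 ± 0.647 RPKM, and it did not pass. Adora2b took 2.69% and 7.5% of the RPKM of all 4 adenosine receptor genes in U01 and U02 and 26.2% to 49.4% in the other 5 libraries.

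None of the 2 tested P2Y genes and none of the 5 tested P2X genes passed. P2ry6, a receptor for UDP, led the former at 2.61 ± 0.976 and 1.35 ± 0.400 RPKM, and P2rx3 the latter at 2.64 ± 0.926 and 2.47 ± 0.236 RPKM. Of 6 ATP release genes Slco2a1 alone passed, and Ano6, a lipid scramblase and ion channel, had the highest level at 39.9 ± 0.722 and 50.2 ± 8.42 RPKM. Neither of 2 NAD enzymes passed, with Bst1 at 91.7 ± 4.11 and 98.9 ± 8.77 RPKM. Of 23 cAMP genes Adcy1 rose and Pde4d fell, and Prkar1a, a regulatory subunit of protein kinase A, led at 56.9 ± 5.12 and 65.6 ± 4.41 RPKM. Of 9 Gq and calcium genes 0 passed, and Ano1, a calcium-activated chloride channel, led at 119 ± 36.9 and 164 ± 43.7 RPKM. The authors' deposited table holds 56 of the 92 genes and gives 7 higher and 3 lower at a false discovery rate under 0.05.

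Genes with a pattern like that of the members at either end were sought by Pearson's r of log2 CPM over the 7 libraries, among 10923 named genes with an average log2 CPM of at least 1. For Nt5e, at the low end, they included Hyal2 (r = 0.993) and Sh3kbp1 (0.986). Sh3kbp1 was at 32.9, 30.5 and 11.9 CPM in U01 to U03 and at 7.76, 8.82, 8.63 and 16.8 CPM in post-caerulein libraries, the order of Nt5e except that P02 and P03 change places. Hyal2 spanned a narrow range, 22.7 to 30.2 CPM, so a like pattern here is not a like size of difference. For Adora2b, at the high end, they were Sh3d21 (0.983), Rnf180 (0.983) and Sgk1 (0.976). Sgk1 was at 248 and 300.02 CPM in U01 and U02 and between 618 and 885 CPM in the other 5. The 7 points of each r share the close pairs and the block, and the highest of 10923 values is large by selection.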

How the data were processed

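The authors deposited raw read counts per gene with exon lengths in bases, per the file headers. The submitters' processing notes name featureCounts 0.6.1 and the build GRCm38 (mm10). Aligner and strand setting: not given in the sources used here. Beside the counts, the authors' deposited edgeR table (edgeR 3.2.2, per the submitters' processing notes) holds log2 fold changes, average log2 CPM, a likelihood ratio score, p-values and false discovery rates, per the file headers.

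Symbols came from GENCODE M21 and matched 54409 of 54446 genes. The filterByExpr function left 16438 genes (count of 10, total of 15). After TMM scaling, edgeR 4.0.16 in R 4.3.3 gave two-sided quasi-likelihood p-values, adjusted by Benjamini-Hochberg over those genes. CPM and RPKM use TMM-scaled totals. The fit had the group as its only term. A second fit added the block of U03 and P04. Both were checked on simulated counts. The prior count for log2 CPM was 2. DESeq2 1.42.0 and limma 3.58.1 (voom) were among the alternatives. Promoters are from RefSeq (GRCm38.p6).

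The members, gene lists, block and tests were chosen with earlier results of these data known. Text names all 10 members, other pathway genes called in either fit, the gene of highest RPKM per list, and the 3 genes most like the member with the highest and with the lowest difference. One gene that this rule names is not reported here. Npdc1, Col1a1, Col1a2, Col3a1, Rgs5, Des, Ptprc, Entpd5, Entpd8, Cftr, Sox9, Cd68 and Ctrb1 were named for the results they touch. That choice came after their values were seen.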

Additional observations from a re-analysis of the deposited data

Results flagged for a closer look

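Nt5e had a group difference that itself differed between the blocks. The log2 difference between P04 and U03 exceeded that within the larger block by 4.94 ± 0.59 (SE of the interaction term). P01 to P03 were below both U01 and U02, whereas P04 was above U03. For Entpd2 the same interaction was -1.83 ± 0.18 (SE): P01 to P03 were above U01 and U02, and P04 was below U03. The smaller block has 1 library per group, so the spread was taken from the larger block. That block holds both close pairs, U01 with U02 and P02 with P03, so this spread may be technical and the SE too small. No p-value is given for genes selected on these values.

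In single libraries, Ada in P04 (9.62 CPM) stood apart from the other 3 post-caerulein libraries, with a gap of 0.899 of the group's range, and so did Entpd1 in P04 (0.231 CPM, 0.880 of the range), which rests on 11 reads. Both exceed Dixon's critical value for 4 samples, which chance passes in about 1 of 20 groups of like samples. That rate does not carry over here, since P04 belongs to another block than P01 to P03. Ada was likewise high in U03 (8.85 CPM), the other library of that block. The share of all genes past this value is not given. The genes were selected on these values, so both are a description.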

How the results depend on the processing

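With the group as the only term, 0 genes and 0 members were called. Without a low-count filter 23 genes were called, with DESeq2 509 and with the likelihood ratio test 343. Leaving out single libraries gave 0 to 1149 genes and 0 to 4 members, the highest of each without U03. Those 4 were Nt5e, Entpd2, Adora2b and a member too low to test in the main fit, whose call is not read as a result. With the replicate number as a block 0 genes and 0 members were called. The numbers share only a name: deviations of same-numbered libraries correlated at 0.37, 0.14 and -0.21, and not every library was closest to its own number.

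With the block of U03 and P04, 251 genes, 0 members and 4 other pathway genes were called. These counts were 602, 2 and 7 without a filter, 1389, 1 and 12 with DESeq2, 1227, 1 and 10 with the likelihood ratio test, and 2247, 4 (with Enpp3) and 20 in the larger block alone. The 2 members called without a filter were Entpd3 and a member too low to test in the main fit. Enpp3 passed the filter in the larger block only through U01 and U02, as given above. Neither its call there nor that of the low member is read as a result. With close pairs summed, 0 genes and 0 other pathway genes were called, and with at least 50 counts in 3 libraries 138 genes. Leaving out single libraries gave 0 to 2267 genes (0 without U01 or U02), 0 to 4 members and 0 to 20 other pathway genes. The 4 members, called without U03, again included a member too low to test in the main fit, and its call is not read as a result either.

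The interaction of group and block, added after the data were seen, was called for 599 genes and 2 members. It was called for 1265 genes without a filter, 1568 with DESeq2, 1532 with the likelihood ratio test and 1 with close pairs summed, where 0 members were called. Leaving out single libraries of the larger block gave 1 to 4909 genes and 0 to 5 members. The causes were not tested.

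The signs of Nt5e, Entpd3, Adora2b, P2ry2 and P2rx4 held in all 15 alternatives of each fit. The smaller block alone was not among these alternatives. Between P04 and U03 the sign was the opposite for Nt5e (1.35), Adora2b (-0.69) and P2rx4 (0.16). Those of Enpp1 in both fits, and of Ada and Entpd2 without the block, did not. Depth limits Adora2b, Enpp3 and Entpd1, which had 55 reads or fewer in every library.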
